A study of Mus musculus with 6 samples.

Results

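The genes described here are the matrix metalloproteinases (Mmp), the membrane-bound ADAM proteases (Adam, with Adamdec1), the secreted ADAMTS proteases (Adamts) and their inhibitors Timp1 to Timp4 and Reck, in macrophages of the pancreatic islet and of fat. They were chosen by symbol, without reference to their values, and number 81 of the 50600 genes in the count table: 23 Mmp, 34 Adam, 19 Adamts and 5 inhibitor genes. RNA was sequenced from macrophages sorted as living cells positive for CD45, F4/80 and CD64. They came from the islets and the epididymal white adipose tissue of 12-week-old C57BL/6J male mice kept on chow, with no treatment and no altered gene in either group. Each tissue gave 3 libraries, numbered 2, 4 and 6, made from 10 ng of total RNA. The labels call the tissues autologous and give each number its own batch label, m2, m4 or m6, in both tissues. The sources used here do not say whether an islet library holds 1 animal or several, so p-values measure the spread between these libraries.

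Metalloproteinases are zinc-dependent enzymes made as inactive precursors. MMPs cut collagens, elastin and other matrix proteins, and macrophages use them to remodel tissue and to release or trim cytokines and chemokines. ADAMs sit in the cell membrane and cut the outer parts off other membrane proteins, a process called shedding; ADAM17 releases tumour necrosis factor in this way and ADAM10 sheds and activates Notch receptors, among others. ADAMTS enzymes are secreted and process collagen precursors and proteoglycans. TIMPs bind and block the active sites, and RECK is a membrane-anchored inhibitor.

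Total counts were 4089980 to 6923475 in the islet libraries and 7450890 to 9235591 in the fat libraries. Levels are in CPM, counts scaled to the library total, after TMM scaling. Differences are islet minus fat on the log2 scale with a standard error (SE), from edgeR's quasi-likelihood fit over all 12152 tested genes, and a gene passed at a Benjamini-Hochberg adjusted p under 0.05. Macrophage genes were present in every library: Cd68, a lysosomal macrophage protein, stood at 438 to 582 CPM in islet and 329 to 472 CPM in fat, and Csf1r, the growth factor receptor of macrophages, differed by -0.06 on the log2 scale (edgeR adjusted p = 0.916). Of 16 tested macrophage identity genes, 3 were higher in islet, 4 lower and 9 did not pass (8.97% higher and 10.5% lower over all genes tested). The 3 higher were Itgax (40.6-fold), Cx3cr1 (26.2-fold) and Mpeg1 (9.08-fold). The 4 lower were Mertk (8.26-fold), Maf (7.98-fold), Itgam (4.34-fold) and Lyz2 (2.51-fold). The libraries also held RNA of neighbouring cells. Marker genes of beta cells, the insulin genes among them, summed to 2708 to 7954 CPM in islet and 1.06 to 5.84 CPM in fat. Fibroblast genes summed to 98.8 to 422 CPM in fat and 0.605 to 2.58 CPM in islet. Islet libraries 2 and 4 held 73694 and 100056 CPM of the 4 heat shock genes Hspa1a, Hspa1b, Hsph1 and Dnajb1, against 3104 CPM in islet library 6 and 206 to 301 CPM in fat.

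In outline, 3 metalloproteinase genes and 1 sheddase gene were high in islet and stood against a broad group of fat-high genes. Of the 81 genes, 60 had at least 1 count and 27 had enough counts for the test. Of these 27, 4 were higher in islet macrophages (Mmp12, Mmp13, Mmp14 and Adam17), 14 were lower and 9 did not pass. Over all genes tested, 19.4% passed, 8.97% higher and 10.5% lower. Of the 27, 7 reached the count minimum in fat libraries alone and 0 in islet libraries alone, so the number lower is in part set by the filter. The median log2 difference was -1.82 over the 27 and 0.01 over all genes tested. The 3 libraries of 1 tissue lay entirely above those of the other for 22 of the 27 genes, 5 with islet above and 17 with islet below (40.6% of all genes tested, 18.2% and 22.3%). The number lower was 8 when fat replicate 2 or fat replicate 4 was left out, and 11 in a fit blocked by library number; the 4 higher genes passed in all of these fits. In bulk RNA, fewer cells of a type and less RNA per cell cannot be told apart.

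The summed level of the Mmp genes was 1320, 664 and 2856 CPM in islet libraries 2, 4 and 6 and 266, 353 and 328 CPM in fat libraries 2, 4 and 6. All islet libraries lay above all fat libraries, and the mean was 5.11-fold higher, a log2 ratio of 2.35 that was 1.65 without islet replicate 6 (exact two-sided permutation p = 0.1, the smallest that 3 against 3 allows). Mmp12, Mmp13 and Mmp14 made up 97.4% to 98.3% of the Mmp sum in islet, while Mmp9 alone made up 71.3% to 84.4% of it in fat. The Adam sum differed little, 973 ± 121 CPM in islet and 1200 ± 92.6 CPM in fat (SD, n = 3; exact permutation p = 0.1), but its makeup did. It too was lower in every islet library (864 to 1103 CPM) than in any fat library (1105 to 1290 CPM). Adamts genes summed to 15.5 to 19.8 CPM in islet and 52.9 to 201 CPM in fat, and the inhibitors to 124 to 365 and 853 to 996 CPM. Both sums were lower in every islet library than in any fat library (exact permutation p = 0.1 for each). The log2 ratio of the Adamts sums was -2.64, and -1.97 without fat replicate 2.

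**Figure D1:**
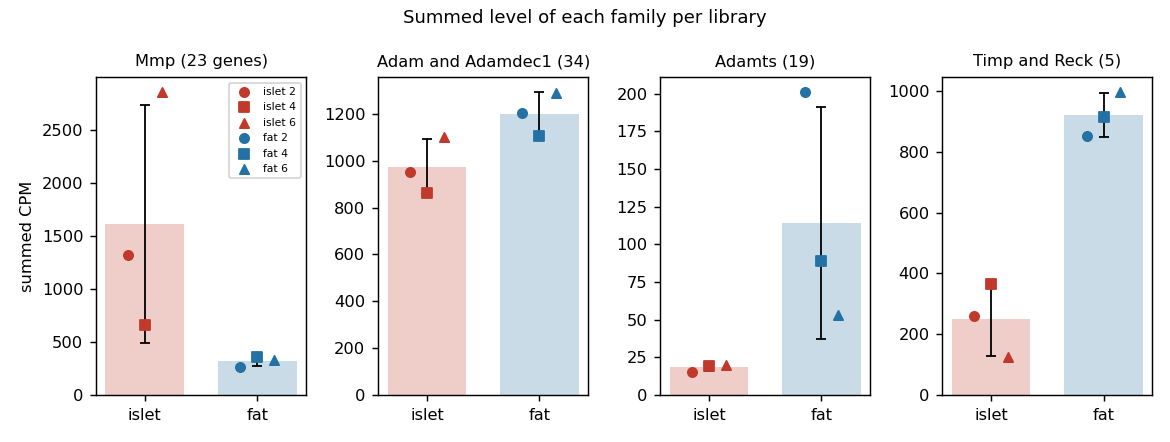
Summed CPM of the 4 gene families in each library. Points are libraries 2, 4 and 6 of islet (red) and fat (blue), bars are means and black lines SD (n = 3). Mmp sums were higher in islet (664 to 2856 against 266 to 353 CPM), and inhibitor sums were higher in fat (853 to 996 against 124 to 365 CPM).

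Mmp12, the macrophage metalloelastase, had the highest fitted fold change of the 4, within 1 SE of that of Mmp14. Its level was 671, 337 and 1252 CPM in islet libraries 2, 4 and 6 and 8.42, 5.17 and 11.5 CPM in fat libraries 2, 4 and 6. Even the lowest islet library lay far above the highest fat library. The gene (ENSMUSG00000049723.14, GRCm38 chromosome 9, 7344381 to 7369499) was 89.7-fold higher in islet (log2 6.49 ± 0.61, SE, edgeR adjusted p = 2.51e-04). Within the same number, the log2 ratio was 6.24, 5.89 and 6.70 for 2, 4 and 6 (with 0.5 CPM added to each value).

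Mmp13 encodes collagenase 3, which cuts fibrillar collagen. Islet libraries 2, 4 and 6 held 270, 88.9 and 236 CPM of it, and fat libraries 10.7, 8.23 and 5.88 CPM. Islet library 4 was the lowest of the islet libraries for this gene as for Mmp12, and still above all fat libraries. Mmp13 (chromosome 9, 7272514 to 7283331) was 23.9-fold higher (log2 4.58 ± 0.48, edgeR adjusted p = 4.22e-04), with within-number ratios of 4.59, 3.36 and 5.21.

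Mmp14 encodes a membrane-anchored collagenase that also activates the precursor of MMP2, with TIMP2 as its partner in that step. It stood at 344, 222 and 1319 CPM in islet and 10.9, 8.89 and 7.06 CPM in fat libraries 2, 4 and 6. Islet library 6 held several times the level of the other islet libraries. Mmp14 (chromosome 14, 54431612 to 54445364) was 70.1-fold higher (log2 6.13 ± 0.74, edgeR adjusted p = 9.21e-04). Without islet replicate 6 the log2 difference was 4.97 (edgeR adjusted p = 4.39e-06), so that library moved the size and not the call. Its within-number ratios were 4.92, 4.57 and 7.45.

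Markers of other islet cells are given beside these genes. Beta cell markers summed to 7954, 5024 and 2708 CPM in islet libraries 2, 4 and 6. They were lowest in library 6, where Mmp12 and Mmp14 were highest, and highest in library 2, where Mmp13 was highest. Endothelial markers summed to 17.3, 14.3 and 29.8 CPM and had the order of Mmp12 and Mmp14. Acinar markers summed to 5.64, 80.6 and 9.43 CPM and were highest in library 4, where Mmp12, Mmp13 and Mmp14 were lowest. Fibroblast markers reached at most 2.58 CPM in islet, and 6 of the 8 had no count there. Ductal markers summed to 117, 35.3 and 105 CPM, lowest in library 4 like the Mmp genes and highest in library 2 like Mmp13. The 2 genes that led this list were Spp1, which macrophages also express (30.8, 4.30 and 61.0 CPM), and Krt18 (64.1, 23.2 and 5.25 CPM). The part of these cells' RNA in the Mmp levels was not tested.

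**Figure D2:**
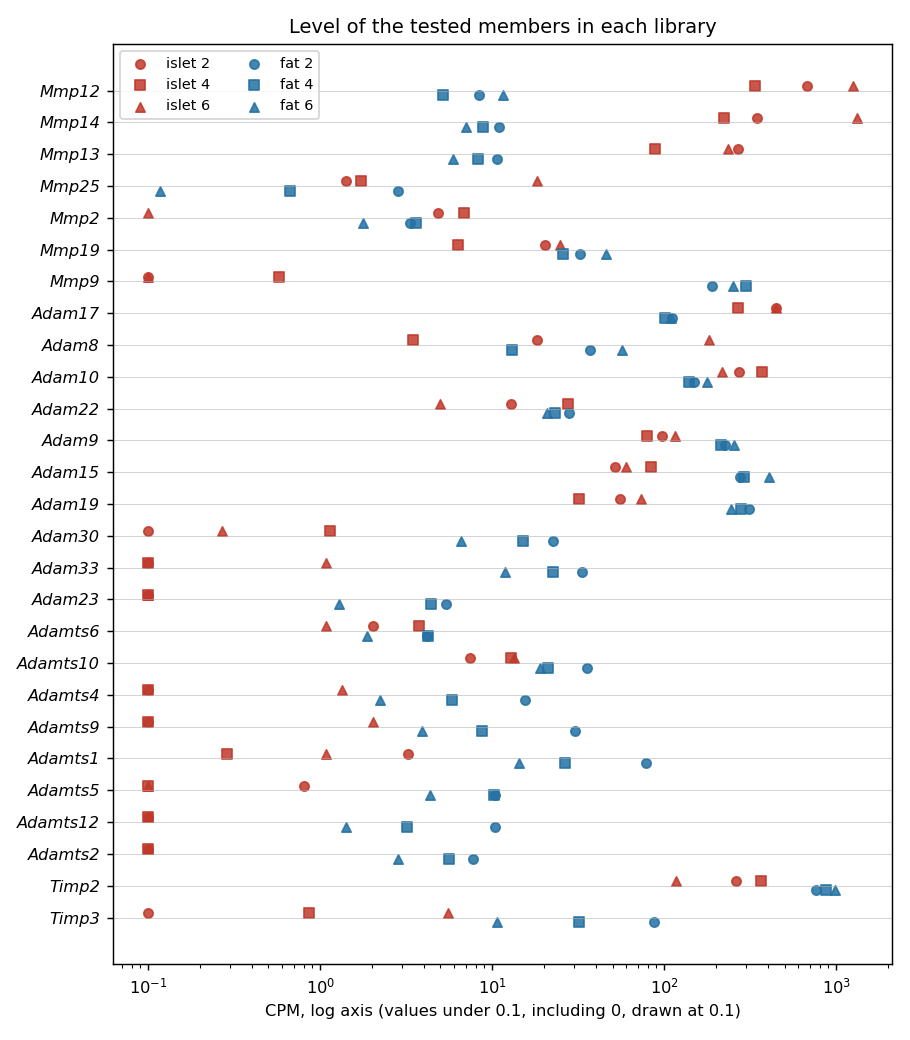
CPM of the 27 tested genes in each library on a log axis, grouped by family; circles, squares and triangles are libraries 2, 4 and 6, islet in red and fat in blue, and values under 0.1 are drawn at 0.1. Mmp12, Mmp13, Mmp14, Adam17 and Adam10 lie higher in all islet libraries, and Mmp9 lies at 0, 0.573 and 0 CPM in islet against 190 to 298 CPM in fat.

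Mmp13 and Mmp12 are the first 2 of 10 Mmp genes that lie side by side within 427.1 kb of chromosome 9 (7272514 to 7699585). In islet macrophages the cluster was read almost only at that end: Mmp13 had 3400 counts and Mmp12 13802 counts over the 3 islet libraries. Mmp10, a stromelysin gene, had 35 islet counts (19, 4 and 12 in libraries 2, 4 and 6) and 0 in fat, at least 6.37-fold higher against a floor of 3 counts per library. The other 7, Mmp1b, Mmp3, Mmp1a, Mmp8, Mmp27, Mmp20 and Mmp7, had no islet counts. In fat, Mmp13 and Mmp12 had 225 and 226 counts, Mmp8 had 4, Mmp3 had 1 and the other 6 had 0. Mmp1b lies on the opposite strand and overlaps 2.2% of the exonic length of Mmp12. Floors and intervals here hold for counting error alone, as reads that carry no molecular identifier can be copies of 1 molecule.

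**Figure D3:**
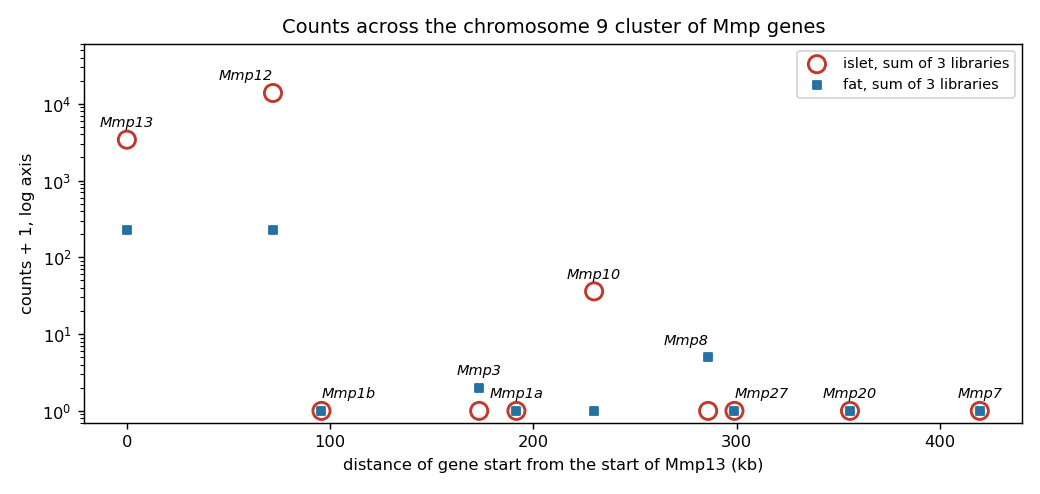
Counts plus 1 (log axis) of the 10 Mmp genes of the chromosome 9 cluster, summed over 3 libraries per tissue (open red circles islet, blue squares fat), against the distance of each gene's start from that of Mmp13 in kb. Islet counts are at Mmp13 (3400), Mmp12 (13802) and Mmp10 (35), and the other 7 genes have none.

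The bases just upstream of the islet-high Mmp genes are shown because these genes rose together and because collagenase and stromelysin promoters are textbook targets of the AP-1 factors (Fos and Jun dimers). The sequences are from RefSeq (GRCm38.p6), run 5′ to 3′ on the plus strand, and stop before any exon of the gene. Capitals mark TGANTCA, a core of the AP-1 motif, searched on both strands. Mmp12 has 2 start sites in RefSeq, and the second lies inside the gene.
Mmp13, chr9:7272364-7272513: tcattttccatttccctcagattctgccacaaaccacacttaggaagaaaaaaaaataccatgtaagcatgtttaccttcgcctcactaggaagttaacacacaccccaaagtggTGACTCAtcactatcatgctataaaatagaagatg
Mmp12, first start, chr9:7344247-7344380: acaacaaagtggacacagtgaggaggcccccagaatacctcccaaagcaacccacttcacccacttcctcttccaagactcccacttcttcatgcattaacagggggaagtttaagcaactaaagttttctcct
Mmp12, second start, chr9:7347224-7347373: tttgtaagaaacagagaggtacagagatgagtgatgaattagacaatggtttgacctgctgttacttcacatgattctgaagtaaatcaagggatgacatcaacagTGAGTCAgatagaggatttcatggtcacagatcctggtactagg
Mmp10, chr9:7502192-7502341: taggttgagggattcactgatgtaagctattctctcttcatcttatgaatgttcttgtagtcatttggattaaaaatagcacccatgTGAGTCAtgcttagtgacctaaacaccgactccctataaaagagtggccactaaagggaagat
Mmp14, chr14:54431448-54431597: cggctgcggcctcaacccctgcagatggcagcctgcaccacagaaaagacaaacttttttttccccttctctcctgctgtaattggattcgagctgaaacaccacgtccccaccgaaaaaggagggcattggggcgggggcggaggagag
The motif began 35 bases before the start of Mmp13, 44 bases before the second start of Mmp12 and 63 bases before that of Mmp10. It was not found upstream of the first start of Mmp12 or of Mmp14. In the 250 bases before the start it occurred in 8 of the 10 genes of the cluster, Mmp1b, Mmp3, Mmp1a, Mmp20 and Mmp7 among them, which had no islet counts. Over all 32851 RefSeq windows of that length 6.7% held it, and of the 55 windows of the genes described here (50 symbols matched) 12 held it. The letters are therefore shared by cluster genes with many counts and with none. A match is a description of the letters and shows no binding.

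Mmp9, or gelatinase B, which cuts denatured and basement membrane collagen, went the other way. Fat libraries 2, 4 and 6 held 190, 298 and 252 CPM, from 6399 counts. The islet libraries held 2 counts in all, both in library 4. Mmp9 (ENSMUSG00000017737.2, chromosome 2, 164940780 to 164955850) was 1908 times as high in fat, with a counting interval at 95% from 528 to 15760 (edgeR adjusted p = 7.49e-05). Left out 1 at a time, islet replicate 4 moved the fitted log2 value from -10.71 to -13.91 and islet replicate 6 to -9.91, both still past the threshold. Neutrophils also store this enzyme. Their list of 10 genes summed to 38.1, 27.9 and 33.3 CPM in fat and 50.7 to 90.7 CPM in islet, and 7 of the 10 had a count in fat. Csf3r, which macrophages can also express, led it with 35.8, 24.0 and 32.2 CPM in fat; S100a8 reached 0.663 CPM, S100a9 1.59 CPM, and Ly6g and Elane had no count. The part of neutrophil RNA was not tested. Mmp8, the neutrophil collagenase, had 4 counts, all in fat library 4. Monocyte markers summed to 3348 to 4229 CPM in fat and 45.9 to 163 CPM in islet, led by F13a1 (3533 CPM in fat), which resident macrophages also express. Ccr2, the chemokine receptor of monocytes, followed with 210, 231 and 361 CPM in fat libraries 2, 4 and 6 and 45.8, 136 and 41.2 CPM in islet (log2 -1.85, edgeR adjusted p = 0.0278). The part of monocyte RNA was not tested.

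The other tested Mmp genes did not pass. Mmp19, which cuts basement membrane proteins, was 20.2, 6.31 and 24.9 CPM in islet and 32.1, 25.6 and 46.0 CPM in fat libraries 2, 4 and 6, without overlap (log2 -0.995 ± 0.47, edgeR adjusted p = 0.183). Of its exonic length, 28.3% overlaps genes on the opposite strand. Mmp2, gelatinase A and the main product of MMP14 activation, was low throughout, at 4.84, 6.88 and 0 CPM in islet and 3.31, 3.58 and 1.76 CPM in fat (edgeR adjusted p = 0.851). Mmp25, a membrane-anchored MMP of leukocytes, stood at 1.41, 1.72 and 18.2 CPM in islet and 2.84, 0.663 and 0.118 CPM in fat (edgeR adjusted p = 0.200). Only islet library 6 was above the fat range for Mmp25, and without it the log2 difference was 0.34 in place of 2.54.

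Among the ADAM genes, Adam17, the enzyme that releases tumour necrosis factor, rose. Its level was 446, 267 and 448 CPM in islet libraries 2, 4 and 6 and 110, 101 and 109 CPM in fat. The fat libraries were nearly equal, and each islet library was more than any of them. Adam17 (ENSMUSG00000052593.15, chromosome 12, 21323509 to 21373632) was 3.62-fold higher (log2 1.86 ± 0.28, edgeR adjusted p = 0.00244), and the within-number ratios were 2.01, 1.39 and 2.03.

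Adam10, the other broad sheddase, had a smaller difference. It stood at 271, 370 and 217 CPM in islet and 149, 139 and 177 CPM in fat libraries 2, 4 and 6. The tissues did not overlap, but the lowest islet and highest fat libraries, both numbered 6, were close. The log2 difference of 0.88 ± 0.27 had an edgeR adjusted p = 0.0522. It passed in only 4 of the 14 alternative fits. These were DESeq2 (adjusted p = 0.0221), limma voom (0.0398) and 2 edgeR fits. The edgeR fits kept genes at 1 CPM or more in all libraries of a tissue (edgeR adjusted p = 0.0469) or left out islet replicate 6 (0.00757). In the other fits the edgeR adjusted p reached 0.243, without fat replicate 4.

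Of 10 tested ADAM genes, 6 were lower in islet, against 10.5% of all genes tested. Of the 10, 3 reached the count minimum in fat libraries alone and 0 in islet libraries alone. Among the 6 lower genes, 3 were well expressed in both tissues. Adam15, an ADAM with an integrin-binding disintegrin domain, was 51.4, 83.4 and 59.5 CPM in islet and 275, 289 and 406 CPM in fat libraries 2, 4 and 6. It was lower in islet (log2 -2.32 ± 0.29, edgeR adjusted p = 0.00111), and 20.6% of its exonic length overlaps a gene on the opposite strand. Adam19 was 55.4, 32.1 and 73.2 CPM in islet and 309, 279 and 245 CPM in fat, 5.16-fold lower (log2 -2.37 ± 0.33, edgeR adjusted p = 0.00173). Adam9, which sheds growth factors and their receptors, was 97.0, 78.8 and 115 CPM in islet and 226, 214 and 253 CPM in fat, 2.38-fold lower (log2 -1.25 ± 0.24, edgeR adjusted p = 0.00764). None of the 3 overlapped between tissues, and each passed in all 14 alternative fits. The ADAM genes with an active sheddase and a good level thus went in both directions, Adam17 up and Adam9, Adam15 and Adam19 down.

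The other 3 that fell were near absent in islet. Adam33, known from mesenchymal cells of the airway, had 8 islet counts, all in library 6, and stood at 33.3, 22.7 and 11.9 CPM in fat libraries 2, 4 and 6 (log2 -5.58 ± 0.92, edgeR adjusted p = 0.00376). Adam30 had 0, 4 and 2 islet counts and 22.6, 15.1 and 6.59 CPM in fat (log2 -5.13 ± 0.93, edgeR adjusted p = 0.00594). Adam30 is known chiefly from testis, and its exons overlap no other gene in the annotation. Adam23, a member without protease activity, had no islet counts and 5.39, 4.38 and 1.29 CPM in fat, at least 5.92-fold lower (edgeR adjusted p = 0.0184, blocked by library number 0.0570). All 3 were highest in fat library 2 and lowest in fat library 6. Left out 1 at a time, islet replicate 6 moved the fitted value of Adam33 to -10.31 and islet replicate 4 that of Adam30 to -6.41 on the log2 scale, both still past the threshold.

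Adam8 and Adam22 did not pass. Adam8, a leukocyte sheddase, stood at 18.1, 3.44 and 181 CPM in islet and 37.1, 13.003 and 56.8 CPM in fat libraries 2, 4 and 6 (log2 0.94 ± 1.09, edgeR adjusted p = 0.604). Islet library 6 was above all fat libraries and islet library 4 below them. Without islet replicate 6 the log2 difference was -1.69 (edgeR adjusted p = 0.105), so no direction can be given. Adam22, a member without protease activity, was 12.9, 27.5 and 4.98 CPM in islet and 27.9, 23.2 and 20.8 CPM in fat libraries 2, 4 and 6 (edgeR adjusted p = 0.427).

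**Figure D4:**
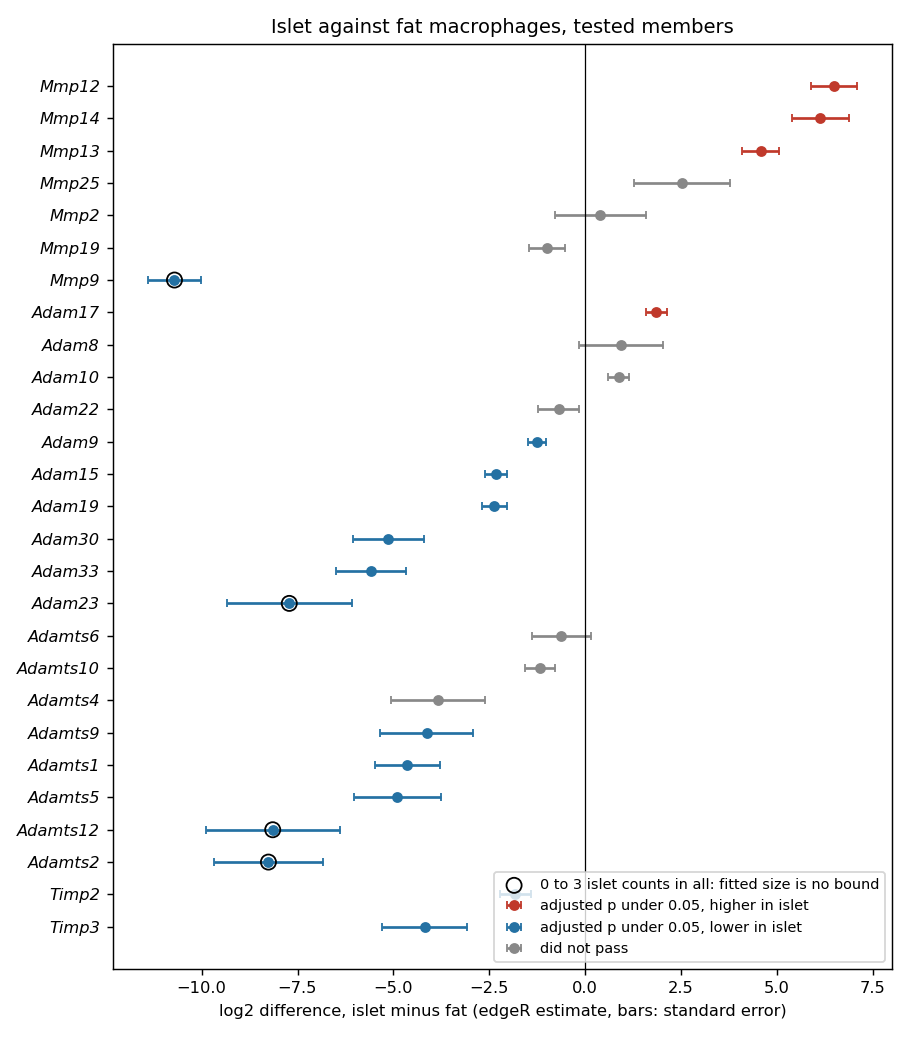
Log2 difference, islet minus fat, of the 27 tested genes with its SE (edgeR estimates from 3 libraries per tissue), grouped by family; red and blue passed at an adjusted p under 0.05, grey did not. Black rings mark Mmp9, Adam23, Adamts12 and Adamts2, which had 0 to 3 islet counts, so that their fitted size is no bound.

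The ADAMTS genes were lower in islet or did not pass: of 8 tested, 5 fell, 0 rose and 3 did not pass. Over all genes tested, 10.5% were lower and 8.97% higher. Of the 8, 3 reached the count minimum in fat libraries alone and 0 in islet libraries alone. The number of ADAMTS genes lower is thus in part set by the filter. No Adamts gene was higher in edgeR, in DESeq2 or in limma voom, and 0 were higher at an unadjusted p under 0.05. Adamts1, which cuts the proteoglycans aggrecan and versican, stood at 3.23, 0.287 and 1.08 CPM in islet and 78.1, 26.4 and 14.2 CPM in fat libraries 2, 4 and 6 (log2 -4.64 ± 0.85, edgeR adjusted p = 0.00610). The log2 value was -5.64 without islet replicate 2 and -3.70 without fat replicate 2, still past the threshold. Limma voom did not call it (adjusted p = 0.0587). Adamts5, another aggrecanase, had 4 counts in islet, all in library 2, and 10.4, 10.2 and 4.35 CPM in fat (log2 -4.89 ± 1.12, edgeR adjusted p = 0.0167). Its fitted size rests on those few counts: it was -8.97 with islet replicate 2 left out and -4.15 with islet replicate 6 left out. Adamts1 and Adamts5 are neighbours on chromosome 16.

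Adamts2, which trims the ends of procollagens, and Adamts12 had no islet counts. Adamts2 stood at 7.75, 5.57 and 2.82 CPM in fat libraries 2, 4 and 6, at least 8.64-fold above the islet floor (edgeR adjusted p = 0.00835). Adamts12 stood at 10.3, 3.18 and 1.41 CPM, at least 7.97-fold above it (edgeR adjusted p = 0.0201). Adamts9, a versican-cutting enzyme, was 0, 0 and 2.02 CPM in islet and 30.4, 8.76 and 3.88 CPM in fat (log2 -4.13 ± 1.21, edgeR adjusted p = 0.0438). Its call was lost when islet replicate 2 or 4, or any 1 fat replicate, was left out (edgeR adjusted p = 0.0587 to 0.276), and in the fit blocked by number (0.0997). The log2 value was -3.06 with fat replicate 2 left out, and -9.66 with islet replicate 6, which held all its islet counts, left out (edgeR adjusted p = 0.00684). Of its exonic length, 12.0% overlaps genes on the opposite strand.

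Adamts4, Adamts6 and Adamts10 did not pass. Adamts4, an aggrecanase, was 0, 0 and 1.35 CPM in islet and 15.5, 5.84 and 2.24 CPM in fat (log2 -3.84 ± 1.23, edgeR adjusted p = 0.0609). Adamts10, which binds fibrillin, was 7.46, 12.9 and 13.3 CPM in islet and 35.7, 21.1 and 18.9 CPM in fat, without overlap (log2 -1.17 ± 0.39, edgeR adjusted p = 0.0668). It was the Adamts gene with the highest level in islet. Each passed in only 3 of the 14 alternative fits, among them the fit without islet replicate 6 (edgeR adjusted p = 0.00944 and 0.0373). The highest edgeR adjusted p was 0.324 and 0.305, both without fat replicate 2. With fat replicate 2 left out 1 Adamts gene was lower, and with fat replicate 4 left out 2 were. Without fat replicate 2, Adamts12, Adamts2, Adamts5 and Adamts9 missed the threshold (edgeR adjusted p = 0.117, 0.0633, 0.0922 and 0.276). Without fat replicate 4, Adamts12, Adamts5 and Adamts9 missed it (0.0604, 0.0823 and 0.0894).

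Of the inhibitors, Timp2 carried most of the signal in both tissues, 95.5% to 100% of the summed Timp genes in islet and 89.0% to 98.8% in fat. It stood at 261, 364 and 117 CPM in islet and 759, 876 and 984 CPM in fat libraries 2, 4 and 6. Each islet library was less than every fat library, and islet library 6, the highest for Mmp14, was the lowest for Timp2. Timp2 (ENSMUSG00000017466.9, chromosome 11, 118301069 to 118355740) was 3.53-fold lower (log2 -1.82 ± 0.41, edgeR adjusted p = 0.0152). It missed the threshold without islet replicate 2, fat replicate 4 or fat replicate 6 (edgeR adjusted p = 0.0560, 0.0542 and 0.0622), at log2 differences of -1.87, -1.89 and -1.74.

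Timp3, the inhibitor that stays bound to matrix and also blocks ADAM17, was 0, 0.860 and 5.52 CPM in islet and 87.2, 32.1 and 10.6 CPM in fat libraries 2, 4 and 6. It was lower in islet without overlap, and the fat libraries spanned a wide range. The log2 difference was -4.19 ± 1.10 (edgeR adjusted p = 0.0288, blocked by library number 0.0848). Leaving out islet replicate 2 or 4, or fat replicate 2 or 4, cost the call (edgeR adjusted p = 0.0635, 0.0572, 0.147 and 0.0707), and in limma voom (adjusted p = 0.121). The log2 value was -3.23 with fat replicate 2 left out and -6.84 with islet replicate 6 left out (edgeR adjusted p = 0.00344). Of its exonic length, 21.3% overlaps Syn3 on the opposite strand.

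Timp4, Timp1 and Reck had too few counts for the test. Timp4 had 63, 41 and 10 counts in fat libraries 2, 4 and 6 and none in islet, at least 6.73-fold lower. Timp1, the soluble inhibitor that inflamed tissue induces, had 4, 3 and 1 counts in fat and none in islet. Reck had 0, 0 and 11 counts in islet and 3, 12 and 1 in fat. No inhibitor was higher in islet in edgeR, DESeq2 or limma voom, and 0 were higher at an unadjusted p under 0.05.

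The genes lower in islet were split by their order across the fat libraries, whatever the size of the change. Of the 14, 10 were highest in fat library 2 and lowest in fat library 6: Adam19, Adam23, Adam30, Adam33, Adamts1, Adamts12, Adamts2, Adamts5, Adamts9 and Timp3. Of all 1271 genes lower in islet, 27.7% had that order. Stromal markers had it too: in fat libraries 2, 4 and 6 the fibroblast list (8 of 8 genes with fat counts, led by Col3a1 and Dcn) summed to 422, 341 and 98.8 CPM. The pericyte and smooth muscle list (7 of 7, led by Rgs5 and Myh11) summed to 228, 64.8 and 33.2 CPM, and the endothelial list (8 of 8, led by Cdh5 and Pecam1) to 188, 87.3 and 34.7 CPM. The mesothelial list (6 of 6) summed to 19.4, 7.56 and 3.06 CPM and the adipocyte list (8 of 8) to 282, 242 and 80.0 CPM. Timp3, Adamts9 and Adamts12 in fat library 6 were at 12.1%, 12.8% and 13.7% of their level in fat library 2. Adamts1, Adam23, Adam30, Adam33, Adamts2 and Adamts5 were at 18.2%, 24.0%, 29.2%, 35.7%, 36.4% and 41.8%, and Adam19 at 79.2%. The pericyte and smooth muscle sum was at 14.6%, the mesothelial at 15.8%, the endothelial at 18.4%, the fibroblast at 23.4% and the adipocyte at 28.3%. Mmp9, Timp2, Adam15 and Adam9 did not have the order and were 111.7% to 147.7% of their fat library 2 level in fat library 6. The monocyte list did not have it either. It summed to 3348, 3864 and 4229 CPM in fat libraries 2, 4 and 6, with library 6 at 126.3% of library 2. In islet the fibroblast list had 2 of 8 genes with a count, and the endothelial and pericyte lists summed to 14.3 to 29.8 and 7.86 to 18.5 CPM. The part of stromal RNA in the lower genes was not tested.

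**Figure D5:**
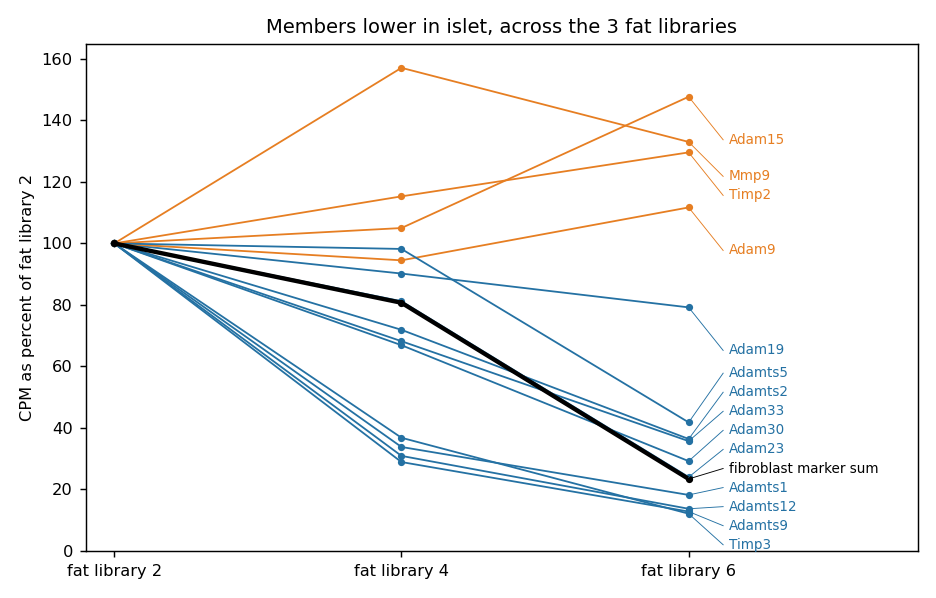
CPM of the 14 genes lower in islet in fat libraries 2, 4 and 6, as percent of the value in fat library 2; blue genes are highest in library 2 and lowest in library 6, orange genes are not, and the black line is the sum of 8 fibroblast markers. The blue genes end between 12.1% and 79.2% and the orange genes between 111.7% and 147.7%, with the fibroblast sum at 23.4%.

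Compared per kilobase of exon, so that genes can be set against each other, the order of levels differed between tissues. In islet, Mmp14 (105 ± 101 CPM per kb, SD, n = 3), Mmp12 (104 ± 64.0), Mmp13 (74.1 ± 36.0), Timp2 (63.5 ± 31.9), Adam10 (58.2 ± 15.8) and Adam17 (54.0 ± 14.5) led, and neighbours in this order did not differ beyond their spread. Adam9 followed at 23.6 ± 4.43 CPM per kb. In fat, Timp2 led at 224 ± 28.8 CPM per kb, above Mmp9 (69.7 ± 15.4) by more than the spread. Adam9 (56.1 ± 4.82), Adam15 (52.6 ± 11.7), Adam19 (39.0 ± 4.52), Adam10 (31.5 ± 3.97) and Adam17 (14.9 ± 0.69) came next. Mmp12 and Mmp14, the top 2 in islet, were ranked 19 and 18 in fat, Mmp12 at 1.16 ± 0.44 CPM per kb.

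Most of the 81 genes were not seen or barely seen. No count was found for 21 genes in any library, 15 of them of the Adam family, such as Adam2, Adam18 and Adam29, which are known from sperm and testis. Adamdec1, a protease gene of gut macrophages, and Adam28, known from lymphocytes, were among the 21. Another 33 had counts but too few for the test. Of the 60 genes with a count, 35% had it in fat alone and 8.33% in islet alone, against 23.2% and 6.49% of all genes with a count; the fat libraries were deeper. The largest untested totals were in fat: Timp4 with 114, Adamts15 with 59, Mmp15 with 52 and Adam12 and Adam4 with 46 each. The only untested genes with at least 5 counts in islet and none in fat were Mmp10 (35), Adamts16 (10, all in islet library 2) and Adamts20 (9, all in islet library 4).

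Genes that control or accompany these proteases were read from lists written for this comparison. For each list the values to set beside it are those of all genes tested: 8.97% higher, 10.5% lower and a median log2 difference of 0.01. Of 11 tested genes that control shedding, such as the iRhom genes Rhbdf1 and Rhbdf2, which carry ADAM17 to the surface, the tetraspanin partners of ADAM10 and the convertase gene Furin, 0 were higher, 1 was lower and 10 did not pass in edgeR. DESeq2 called 1 higher and limma voom 0. At an unadjusted p under 0.05 1 was higher, Tspan33, another tetraspanin of the list. Tspan33 stood at 20.0, 24.7 and 3.77 CPM in islet and 1.42, 0.531 and 4.47 CPM in fat libraries 2, 4 and 6. Its libraries overlapped between tissues, and it was 7.40-fold higher (edgeR adjusted p = 0.0507). The 1 that fell was Tspan17, a partner of ADAM10, from 8.42, 7.83 and 12.2 CPM in fat to 2.22, 3.44 and 2.29 CPM in islet (log2 -1.85 ± 0.50, edgeR adjusted p = 0.0315). It missed the threshold when blocked by number (0.0860), without islet replicate 2 (0.0737) and when fat replicate 2, 4 or 6 was left out (0.111, 0.0860 and 0.160). The number lower was 4 without islet replicate 6. Rhbdf2 stood at 113, 25.8 and 150 CPM in islet and 45.5 to 64.1 CPM in fat, and Furin at 130 to 336 and 122 to 191 CPM; neither passed (edgeR adjusted p = 0.334 and 0.317). The list's median log2 difference was -0.06.

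Of 33 tested genes whose products are known to be shed, 7 were higher, 9 lower and 17 did not pass, with a median of -0.09. The share of all genes tested was 8.97% higher and 10.5% lower. Among the higher were Axl, a receptor for dying cells (1539, 1883 and 1596 CPM in islet against 160 to 189 CPM in fat, 9.57-fold), F11r, a junction protein (74.8-fold), and Sema4d, a membrane semaphorin (20.7-fold), with edgeR adjusted p = 1.84e-04, 3.45e-04 and 4.13e-04. The other 4 were Tnf (3.05-fold), Trem2 (3.13-fold), and the epithelial adhesion genes Epcam (38.4-fold) and Cdh1 (39.5-fold). Epcam stood at 4.23, 2.01 and 3.91 CPM and Cdh1 at 17.9, 8.31 and 11.7 CPM across islet libraries 2, 4 and 6, where beta cell markers summed to 7954, 5024 and 2708 CPM and ductal markers to 117, 35.3 and 105 CPM. Epithelial cells also express F11r, and the part of endocrine and ductal RNA in these 3 genes was not tested. Among the lower were Cd163, Mertk and Aplp2, a relative of the amyloid precursor (log2 -9.10, -3.05 and -2.01). Axl and Mertk are sister receptors and went in opposite directions. The number higher was 4 without fat replicate 2, and the number lower was 5 without fat replicate 2 or 4, 6 without fat replicate 6 and 14 without islet replicate 6.

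Other proteases of the cell surface and matrix numbered 21 tested genes, of which 5 were higher, 3 lower and 13 did not pass (median 0.29). Plau, the urokinase plasminogen activator, which starts a cascade that can activate MMPs, was 8.89-fold higher, with 1096, 350 and 804 CPM across islet libraries 2, 4 and 6 against 76.6 to 92.3 CPM in fat (edgeR adjusted p = 0.00151). Like Mmp12 and Mmp13, it was lowest in islet library 4. Cpd and Cpe, 2 carboxypeptidase genes, were 10.0-fold and 20.1-fold higher; endocrine cells also express Cpe, and its level of 88.1, 58.2 and 39.7 CPM in islet libraries 2, 4 and 6 had the order of the beta cell marker sum. The 3 lower were Hpse, the heparan sulfate-cutting heparanase (22.6-fold), Enpep (30.2-fold) and Ace (15.1-fold). Enpep and Ace missed the threshold without fat replicate 2 (edgeR adjusted p = 0.0548 and 0.171), 4 (0.0539 and 0.126) or 6 (0.0622 and 0.0902), Ace also without islet replicate 4 (0.0540) and Enpep in DESeq2 (adjusted p = 0.0877). With any 1 fat library left out 1 gene was lower, and with islet replicate 6 left out 5 were; 3 were higher when fat replicate 2 or 6 was left out.

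Of 12 tested genes in a list of inhibitors of other classes, 3 were higher, 3 lower and 6 did not pass (median 0.11). The list also holds Pcolce, which is not an inhibitor. Spint1, which blocks membrane serine proteases, stood at 37.1, 53.9 and 59.0 CPM in islet and had no count in fat, at least 145-fold higher against the floor (edgeR adjusted p = 1.36e-04). In islet libraries 2, 4 and 6 beta cell markers summed to 7954, 5024 and 2708 CPM and ductal markers to 117, 35.3 and 105 CPM. The part of endocrine and ductal RNA in the Spint1 level was not tested. Cst3, the cathepsin inhibitor cystatin C, was 2.58-fold higher (edgeR adjusted p = 0.0202). It missed the threshold when islet replicate 2 was left out (0.0596) and when fat replicate 2, 4 or 6 was (0.126, 0.0706 and 0.0982). Serpinb6a was 8.21-fold lower, Pcolce, an enhancer of procollagen processing, had no islet count and 12.5 to 14.5 CPM in fat (at least 21.3-fold lower), and Serping1 had an edgeR adjusted p = 0.0492, lost when blocked by number (0.0894), in limma voom (0.115) and without islet replicate 2 (0.0861) or fat replicate 2, 4 or 6 (0.210, 0.159 and 0.0580). When islet replicate 2 or any fat library was left out, 1 was higher, and the number lower was 6 without islet replicate 4 and 5 without islet replicate 6.

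Of 18 tested genes for uptake and breakdown of matrix inside the cell, 3 were higher, 5 lower and 10 did not pass (median -0.62). The integrin subunits Itgav and Itgb5, which pair as a vitronectin receptor, were 8.98-fold and 13.6-fold higher, and the elastin-cutting cathepsin gene Ctss 9.70-fold. Colec12, a scavenger receptor, stood at 0.202, 0.573 and 1.89 CPM in islet and 135, 146 and 165 CPM in fat (145-fold lower), and Lyve1, the hyaluronan receptor, and Mrc1, the mannose receptor that takes up collagen, were also lower (log2 -10.55 and -5.33). All 6 had edgeR adjusted p between 1.09e-04 and 7.08e-04.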

How the data were processed

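Per the labels' protocols, total RNA extracted with a micro kit went into stranded, low-input libraries. The authors deposited read counts per gene, whole and not normalised; the submitters' processing notes name STAR, featureCounts, Subread 1.6.4 and GRCm38. The sources used here give neither the annotation nor the strand setting of the counting. Genes were matched without version to GENCODE M21 (81 of 81) for coordinates and exon lengths; 9 of the 27 tested genes have exons that overlap another gene.

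The fit used edgeR 4.0.16 under R 4.3.3 (filterByExpr, TMM, robust quasi-likelihood fit, tissue as the only term). Family sums were tested by exact permutation of the libraries, two-sided. On simulated data with 12152 genes, 4-fold changes were recovered in 40% of 100 cases and 2-fold changes in 0%, with 0 unchanged genes called. Other fits used RLE or upper-quartile scaling, DESeq2 1.42.0, voom (limma 3.58.1), no filter, a filter at 1 CPM in all libraries of a tissue, a block for the library number, or 1 library fewer; leaving out islet libraries 2 and 4 together was added after the data were seen. The pairing comes from the labels; across genes, same-numbered libraries had correlations of deviations from the tissue mean of 0.044, 0.073 and 0.002. Values per library are given for genes past the threshold, a fixed set of key members and tested members of at least 5 CPM in a tissue, and in each list of related genes the 3 smallest adjusted p in each direction are named, except 1 gene that is not reported here. Other genes, among them Rhbdf2, Furin, Csf1r, Cd68, Lyz2, Tnf, Trem2, Epcam, Cdh1, several neutrophil genes and the heat shock genes, were named with their values known. The members and lists were chosen with earlier results of these data known. A planned search for protein motifs was not run. No sample was left out.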

Additional observations from a re-analysis of the deposited data

How the results depend on the processing

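The 4 genes higher in islet were 4 to 6 in all alternatives, and Mmp12, Mmp13, Mmp14, Adam17, Mmp9, Adam9, Adam15, Adam19, Adam30 and Adam33 passed in all 14 fits. With each library left out in turn, 4 to 5 of the genes were higher and 8 to 17 lower (14 with all libraries), and over the related lists 11 to 22 were higher and 13 to 33 lower (18 and 21 with all libraries). With no filter 21 were lower, and with the replicate block 11, with Adam23, Adamts9 and Timp3 lost. Of the genes named in the related lists by smallest adjusted p, Tspan17 and Serping1 also lost their call under the block. The number of genes with shed products that were higher was 6 under the block in place of 7. The calls of Tnf, Trem2, Epcam and Cdh1 under the block are not given here. The summed level of all 81 genes had no stable direction: its log2 ratio was 0.16, -0.035 with raw library totals and -0.20 to 0.38 with 1 library left out. Mmp2 turned to -1.64 in limma voom, -0.42 with the replicate block, -0.29 to 1.01 with 1 library left out (lowest without islet replicate 4) and -7.64 without islet libraries 2 and 4, and Adam8 to -0.33 with the replicate block and -1.69 to 1.48 with 1 library left out (lowest without islet replicate 6); the cause was not tested. Without islet libraries 2 and 4 together, 5 were higher and 16 lower, 1 islet library being assumed to vary like the fat libraries. Simulated 2-fold changes were not recovered, but the simulation changed 100 genes per fold size, while 2361 genes passed here. With fewer changed genes the adjusted threshold is stricter, so the simulated recovery is not that of this comparison. Tnfrsf1a, for 1, passed here at 1.87-fold lower (edgeR adjusted p = 0.0209). Missing the threshold is no sign of equal levels.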

Other observations

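Mmp14 and Timp2, whose proteins form a complex at the cell surface, can be set against each other per kilobase of exon. In islet libraries 2, 4 and 6 the Mmp14 level was 57.8, 37.2 and 221 CPM per kb and the Timp2 level 66.9, 93.5 and 30.0 CPM per kb. The ratio of Mmp14 to Timp2 was thus 0.863, 0.398 and 7.38 in those libraries. In fat libraries 2, 4 and 6 Timp2 exceeded Mmp14 by 107, 151 and 213 times. All islet ratios lay above all fat ratios. This had to follow, as Mmp14 was above and Timp2 below all fat libraries in every islet library, and is no further evidence. Islet library 6 had the highest ratio, with 3104 CPM of 4 heat shock genes against 73694 and 100056 CPM in islet libraries 2 and 4. The part of heat shock in this spread was not tested.

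The letters AGGAAG, a core of ETS factor motifs searched on both strands, were in 29.5% of all 32851 RefSeq windows of 250 bases and in 20 of the 55 windows of the genes described here. Of the 5 windows of the 4 genes higher in islet, 4 held them. The letters TGACNNNGC, a core of the antioxidant response element, were in 10.2% of all windows and in 5 of the 55, and in none of the 5 windows of the 4 genes higher in islet. TGACNNNGC and TGANTCA can overlap. No match says only that these letters are not in the window. With 5 windows, 0 matches is no sign of a share below that of all windows.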
